A study of Mus musculus with 4 samples.

Results

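The retinoic acid (RA) genes of the testis were examined as 1 set, comprising enzymes that make RA, a protein that binds it in the cytoplasm, enzymes that clear it, its receptors and *Stra8*, a germ cell gene that it induces. The set held 10 genes, *Rdh10*, *Aldh1a1*, *Aldh1a2*, *Crabp1*, *Cyp26a1*, *Cyp26b1*, *Rara*, *Rarb*, *Rarg* and *Stra8*, out of the 18193 that the platform annotation pairs singly with a probe set. A probe set, the group of short oligonucleotides that reads a transcript on an Affymetrix array, was taken when its annotation gave exactly 1 of these symbols. This gave 12 probe sets, 1 for each of 8 genes and 2 each for *Rdh10* and *Rarg*, and all of these were bright enough for the test.

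Whole testes of WT and *Ccnyl1*-/- C57BL/6 mice were measured at 2 months of age, with 1 array for each of 2 biological replicates per genotype. Each replicate is called a mouse here, although the titles do not say whether tissue of several mice was pooled. *Ccnyl1* encodes a cyclin of the cyclin Y family, and the knockout mice carry the constitutive KO-first allele tm1a (EUCOMM)Wtsi with a LacZ cassette and were bred from heterozygous parents, because the homozygous males are sterile. The labels give the other mice as WT and do not say whether they were littermates, and no treatment is named. The value of each probe set was its MAS 5.0 signal, a background-corrected intensity on a linear scale, computed on each array by itself. Signals of different probe sets are not on a common scale, so the level of one was not compared with that of another, and the marker sums given at the end follow their brightest probe sets.

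RA is made from retinol in a pair of oxidation steps, the first by a retinol dehydrogenase such as RDH10 and the second by the retinaldehyde dehydrogenases of the ALDH1A family. It binds the nuclear receptors RARα, RARβ and RARγ, which pair with retinoid X receptors on direct repeats of a short half-site in DNA, and it is degraded by the cytochrome P450 enzymes of the CYP26 family. In the seminiferous epithelium RA drives the differentiation of spermatogonia and the entry of germ cells into meiosis, where *Stra8* is the best known responding gene. *Rarb* and *Cyp26a1* are textbook direct targets of the receptors in many tissues.

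The half-sites of these receptors are shown for 3 members known to be induced by RA, *Rarb*, *Cyp26a1* and *Stra8*. This choice does not mean that the other members do not respond to RA. Each stretch covers the 200 bases before the annotated transcription start, 5′ to 3′ on the strand of the gene, from RefSeq on GRCm38.p6. Capitals mark every match, on either strand, to the half-site AGGTCA or to a variant of it, which is AGTTCA with a changed base, or GGGTCA with another, or the form GGTTCA that holds both changes. The stretches are those of *Rarb* (chr14:16575477-16575676, minus strand), *Cyp26a1* (chr19:37697608-37697807, plus strand) and *Stra8* (chr6:34920748-34920947, plus strand).
Rarb: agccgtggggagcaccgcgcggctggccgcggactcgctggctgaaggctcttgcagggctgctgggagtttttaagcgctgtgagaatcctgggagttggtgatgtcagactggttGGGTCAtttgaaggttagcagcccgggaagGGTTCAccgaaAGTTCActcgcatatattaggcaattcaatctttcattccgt
Cyp26a1: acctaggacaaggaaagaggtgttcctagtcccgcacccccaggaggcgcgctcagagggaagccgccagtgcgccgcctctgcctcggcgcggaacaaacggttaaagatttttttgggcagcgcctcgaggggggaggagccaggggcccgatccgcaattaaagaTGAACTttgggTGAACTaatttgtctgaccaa
Stra8: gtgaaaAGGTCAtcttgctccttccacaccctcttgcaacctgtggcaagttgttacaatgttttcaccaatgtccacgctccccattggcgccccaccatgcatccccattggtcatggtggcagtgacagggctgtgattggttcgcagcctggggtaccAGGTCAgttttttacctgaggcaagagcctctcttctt

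In the *Rarb* stretch GGTTCA and AGTTCA lie in the same direction with 5 bases between them, from 53 to 37 bases before the start, and 1 more half-site, GGGTCA, lies upstream. *Cyp26a1* carries TGAACT at both ends of a repeat of the same spacing, on the opposite strand, from 32 to 16 bases before the start. The *Stra8* stretch holds only single copies of AGGTCA, which begin 194 and 38 bases before the start. The *Rarb* and *Stra8* stretches lie inside the annotated span of their genes, as does the last part of that of *Cyp26a1*, so that other annotated starts lie farther upstream.

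Among the windows in the table, which run from 250 bases before to 50 bases after a start, 14 belong to 9 of the genes. *Rdh10* has no entry there. Direct repeats spaced by 5 bases were found in 2 of these 14 windows, those of *Rarb* and *Cyp26a1*, against 0.0974% of all 32851 windows. Both are the textbook direct targets named above, so this contrast is no test of enrichment in the set. Repeats spaced by 1 or 2 bases were found in 0 of the 14, against 0.222% and 0.268% of all. A half-site of any kind, including those within a repeat, was found in 7 of the 14 and in 43.7% of all. These matches describe letters in the windows and were not tested for binding.

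**Figure D1:**
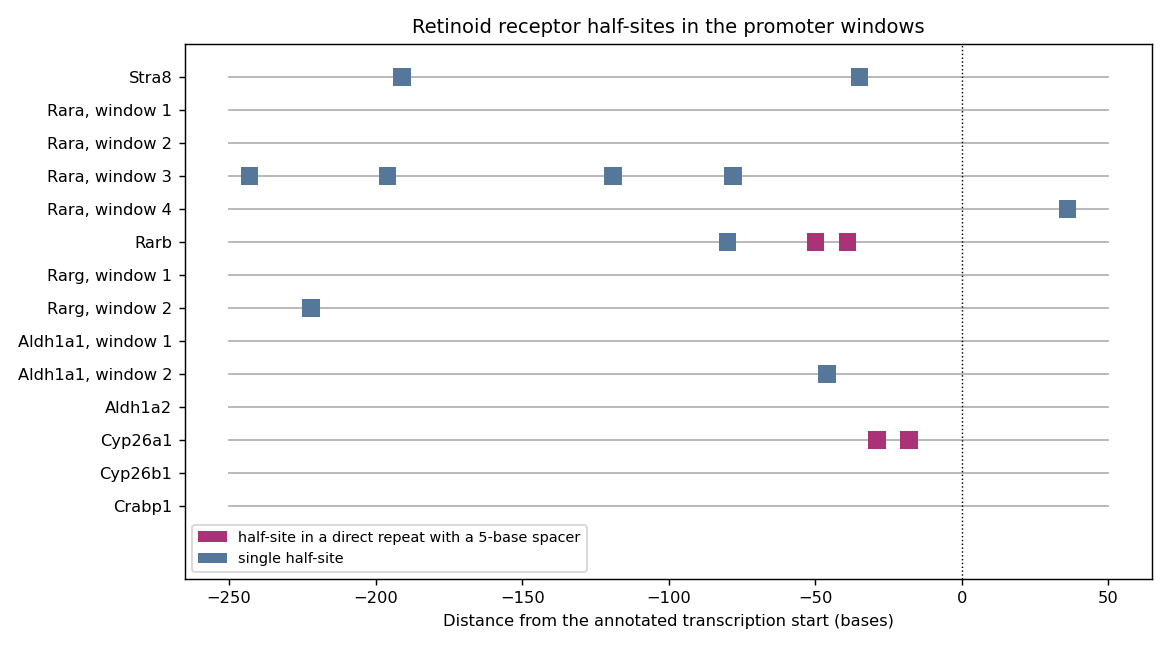
Position of each half-site match (the 4 forms named above, either strand) in the 14 promoter windows of 9 genes, as distance in bases from the annotated start (dotted line). The 2 windows with a repeat spaced by 5 bases are those of *Rarb* and *Cyp26a1*, both within 53 bases before the start, and several genes have more than 1 window.

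As a check of the labels, the probe set of *Ccnyl1* read 2256 and 2425 in the WT mice and 921 and 969 in the *Ccnyl1*-/- mice, a log2 fold change of -1.29 (SE, the standard error, 0.09, limma, adjusted p = 0.00463). The knockout mean kept 40.4% of the WT mean, and since the position of the probes with respect to the LacZ cassette is not known, the labels are checked only by this level. The 4 arrays had the same trimmed mean of 500.0, their log2 signals correlated at 0.977 to 0.980 across probe sets, and the median signal of tested probe sets ran from 197 to 209. Genotypes were compared on log2(signal + 16) with limma over 32438 probe sets with a mean signal of at least 32, with Benjamini-Hochberg adjustment over all of them. Of germ cell markers, 11 of 11 for spermatocytes, 10 of 10 for round spermatids and 10 of 10 for elongating spermatids were bright enough for the test. That minimum was met by 32438 of 45037 probe sets of all kinds, so passing it does not check the tissue label. The offset of 16 draws dim signals together, so that a difference between them is usually understated, but it also changes the weight of each mouse and raised the value of the dimmer *Rarg* probe set described below, which was 0.22 without an offset and 0.33 with it. With 2 arrays per genotype their number limits the precision, and an exact permutation test of 1 probe set cannot give a two-sided p below 0.333.

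The RA genes did not differ between WT and *Ccnyl1*-/- testes past the test. Of the 12 probe sets, 0 had an adjusted p under 0.05, against 0.0123% of all tested probe sets, and their limma adjusted p-values ran from 0.797 to 0.995. At an unadjusted p under 0.05 there were 2, one of *Aldh1a2* and one of *Rarg*, against 6.05% of all. The mice of the genotypes lay apart for 6 of the 12, against 35.9% of all. Of these, *Aldh1a2*, *Stra8* and the brighter *Rarg* probe set made 3 with both *Ccnyl1*-/- mice higher (20.6% of all), and *Cyp26b1*, *Rara* and the brighter *Rdh10* probe set made 3 with both lower (15.3% of all). In whole tissue, fewer cells of a type and less RNA per cell cannot be told apart.

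**Figure D2:**
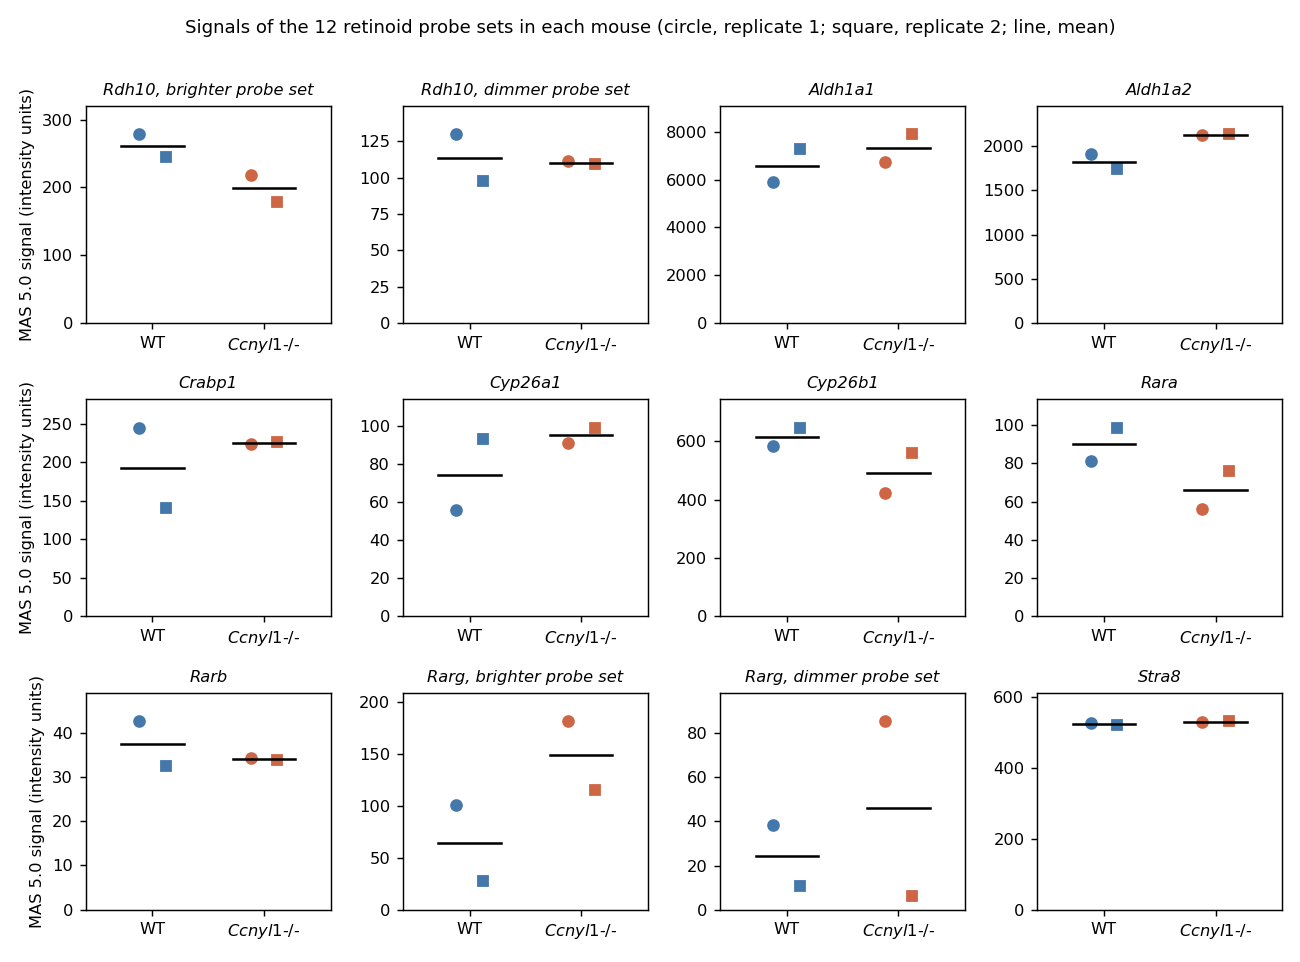
MAS 5.0 signal (intensity units, linear axis from 0) of the 12 probe sets in WT (blue) and *Ccnyl1*-/- (orange) testes, with a point for each mouse and a line at the mean of 2 mice. The 4 *Stra8* points lie between 521 and 532, whereas those of the dimmer *Rarg* probe set run from 6.42 to 85.6.

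*Rdh10* encodes the dehydrogenase that takes retinol to retinaldehyde, the first step of RA synthesis. Its brighter probe set (1426968_a_at) had signals of 278 and 245 in the WT mice and 219 and 178 in the *Ccnyl1*-/- mice. Both knockout mice were below both WT mice, and the knockout mean of 199 ± 29.0 (SD, n = 2) was 75.9% of the WT mean of 262 ± 23.6 (SD, n = 2). The log2 fold change was -0.38 (SE 0.18, 95% interval -0.78 to 0.03, limma, adjusted p = 0.829).

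The dimmer *Rdh10* probe set (1460632_at) had 130 and 97.9 in the WT mice and 111 and 109 in the *Ccnyl1*-/- mice. Here the knockout mice lay between the WT mice, so the genotypes overlapped. Its log2 fold change was -0.03 (SE 0.23, 95% interval -0.56 to 0.51, limma, adjusted p = 0.995). The probe sets of the gene thus gave different sizes of difference, neither past the test.

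*Aldh1a1* encodes the retinaldehyde dehydrogenase known mainly from Sertoli cells. Signals of its probe set (1416468_at) were 5889 and 7278 in the WT mice and 6755 and 7896 in the *Ccnyl1*-/- mice. The mice interleaved, with the first knockout mouse between the WT mice, and the means were 6584 ± 983 and 7326 ± 807 (SD, n = 2 each). The log2 fold change of 0.16 (SE 0.11, 95% interval -0.09 to 0.40) did not pass (limma, adjusted p = 0.862).

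*Aldh1a2* encodes the second enzyme of that family, which germ cells are known to contain. Its probe set (1422789_at) read 1913 and 1741 in the WT mice and 2129 and 2135 in the *Ccnyl1*-/- mice. Both knockout mice were above both WT mice and were close to each other. The means of 1827 ± 122 and 2132 ± 4.27 (SD, n = 2 each) differed by 1.17-fold. Of the 12 probe sets this one had the narrowest interval, 0.03 to 0.41 around a log2 fold change of 0.22 (SE 0.08), and it did not pass after adjustment (limma, adjusted p = 0.797).

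*Crabp1* encodes a cytoplasmic protein that binds RA and is a marker of premeiotic germ cells. The WT mice read 245 and 140 on its probe set (1448326_a_at) and the *Ccnyl1*-/- mice 224 and 226. The WT mice thus enclosed the knockout mice and differed from each other by 1.75-fold. The means were 193 ± 74.0 and 225 ± 1.57 (SD, n = 2 each), which gave a log2 fold change of 0.26 (95% interval -0.30 to 0.82, limma, adjusted p = 0.897).

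The clearance enzymes had signals with opposite signs of difference. *Cyp26b1*, whose enzyme degrades RA in the fetal testis and in peritubular cells of the adult, read 585 and 647 in the WT mice and 424 and 562 in the *Ccnyl1*-/- mice (1460011_at). Each knockout mouse was below each WT mouse, by a small margin for the second knockout mouse. The knockout mean of 493 ± 97.2 (SD, n = 2) was 80.0% of the WT mean of 616 ± 43.5 (SD, n = 2), a log2 fold change of -0.32 (SE 0.15, 95% interval -0.68 to 0.03, limma, adjusted p = 0.830).

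*Cyp26a1*, which is both a clearance enzyme and an RA-induced gene, read 55.8 and 92.9 in the WT mice and 90.9 and 99.0 in the *Ccnyl1*-/- mice (1419430_at). The first WT mouse stood below the others and the genotypes overlapped. The means were 74.3 ± 26.3 and 94.9 ± 5.69 (SD, n = 2 each), with a log2 fold change of 0.33 (95% interval -0.35 to 0.9997, limma, adjusted p = 0.894). The printed repeat in its promoter therefore belongs to a gene whose interval, on the scale with the offset, spans no difference and nearly a doubling.

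Among the probe sets of the 3 receptors and *Cyp26a1*, 4 had a mean signal under 100, which was the case for no other probe set of the 12. *Rara*, the receptor known to act in Sertoli cells, read 81.3 and 98.7 in the WT mice and 56.1 and 75.8 in the *Ccnyl1*-/- mice (1450180_a_at). Both knockout mice were lower than both WT mice, and their mean of 65.9 ± 14.0 (SD, n = 2) was 73.2% of the 90.0 ± 12.3 (SD, n = 2) in WT. The interval of the log2 fold change of -0.38 ran from -1.03 to 0.27 (limma, adjusted p = 0.877).

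*Rarb*, an RA-induced receptor, was close to the minimum signal, with 42.6 and 32.4 in the WT mice and 34.3 and 33.9 in the *Ccnyl1*-/- mice (1454906_at). The knockout mice lay between the WT mice. Its log2 fold change was -0.09 with an interval from -1.02 to 0.84 (limma, adjusted p = 0.987), which includes a 2-fold lower level.

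*Rarg*, the receptor known to act in spermatogonia, had the largest fold change of the 12 and also the widest spread between mice of a genotype. Its brighter probe set (1419415_a_at) read 101 and 27.4 in the WT mice and 182 and 115 in the *Ccnyl1*-/- mice. Both knockout mice were above both WT mice, while the second WT mouse, under a signal of 32, stood far below the first. The means of 64.2 ± 52.1 and 148 ± 47.0 (SD, n = 2 each) differed by 2.31-fold, and the log2 fold change was 1.18 (SE 0.45, 95% interval 0.15 to 2.20, limma, adjusted p = 0.797).

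The dimmer *Rarg* probe set (1419416_a_at) read 38.5 and 10.6 in the WT mice and 85.6 and 6.42 in the *Ccnyl1*-/- mice. The knockout mice enclosed the WT mice, and the second mouse of each genotype was under the minimum of 32 that was required of the mean. This probe set entered the test only through the first knockout mouse, since the WT mean was 24.5 and the mean over the knockout mice 46.0. The log2 fold change was 0.33, with an interval from -1.39 to 2.05, the widest of the 12 (limma, adjusted p = 0.963).

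*Stra8*, the RA-induced gene of meiotic entry, read 526 and 521 in the WT mice and 528 and 532 in the *Ccnyl1*-/- mice (1420568_at). The mice of the genotypes lay apart, but all 4 lay within a 1.02-fold range. The means of 524 ± 3.33 and 530 ± 2.54 (SD, n = 2 each) differed by 1.01-fold. Its log2 fold change was 0.02 (SE 0.12, limma, adjusted p = 0.992), and its sign turned when the arrays were brought to one median (-0.06) or quantile normalised (-0.01). The 95% interval of the moderated test, which takes its error partly from probe sets of like brightness, ran from 0.840-fold to 1.22-fold. Only 0.355% of all tested probe sets varied less within the genotypes than *Stra8* did, so this closeness describes 4 arrays and is not the precision of the method.

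**Figure D3:**
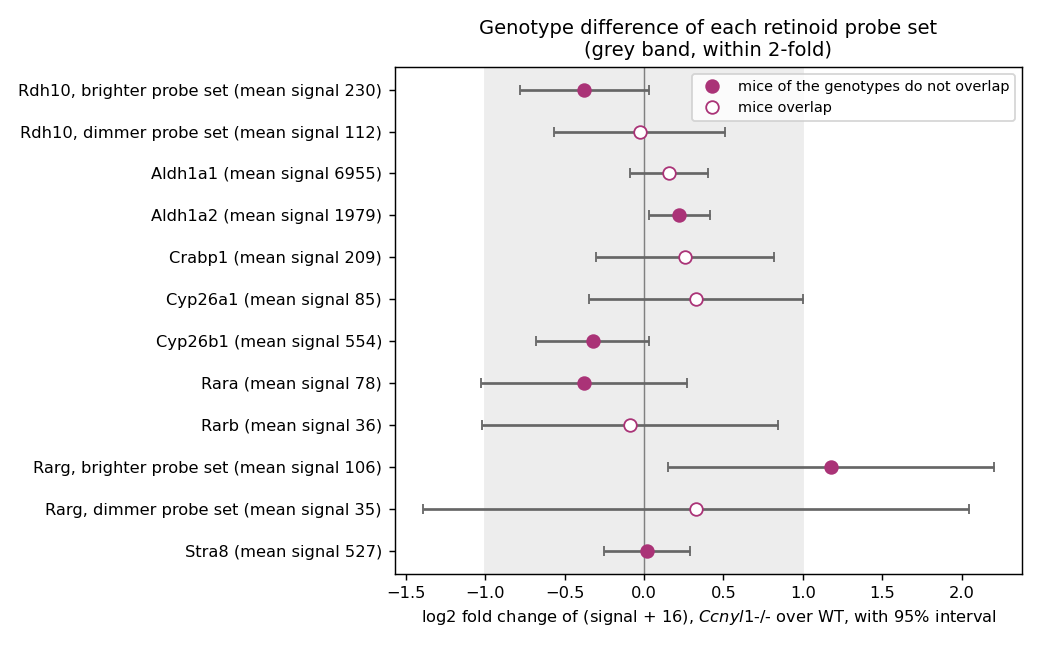
Log2 fold change of (signal + 16), *Ccnyl1*-/- over WT, for the 12 probe sets, with 95% intervals from limma; the grey band spans differences within 2-fold and filled points mark the 6 whose mice do not overlap. The intervals of *Aldh1a2* (0.03 to 0.41) and the brighter *Rarg* probe set (0.15 to 2.20) lie above 0 and the others cross it.

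Intervals that lay wholly within a 2-fold difference were found for 8 of the 12 probe sets, against 75.8% of all tested probe sets. The others were those of *Rara*, *Rarb* and both probe sets of *Rarg*. For the receptors a 2-fold difference was thus not excluded by the interval at this number of arrays. Of the 8, the interval of *Cyp26a1* was within this limit only by a hair, with an upper end of 0.9997 on the scale with the offset. Its log2 fold change was 0.33 with the offset and 0.40 without it. A 2-fold difference in the signal of *Cyp26a1* is therefore not taken as excluded. Among the 10 genes, by the brightest probe set, 6 were higher and 4 lower in *Ccnyl1*-/- testes, with a median log2 fold change of 0.09. Over all 15268 genes the median was -0.00036 and 49.9% were higher. The median SD of log2 signals within the genotypes was 0.20 for the 12 probe sets and 0.16 for all.

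Each mouse was left out in turn to see which differences rested on 1 mouse. Where the genotypes did not overlap, leaving out 1 mouse could change the size of a difference but not its sign. For that reason the differences of *Aldh1a2* (0.16 to 0.29), *Cyp26b1* (-0.52 to -0.13), *Rara* (-0.55 to -0.20) and the brighter *Rdh10* probe set (-0.51 to -0.24) kept their sign. That of the brighter *Rarg* probe set ranged from 0.46 without the second WT mouse to 1.89 without the first, when the adjusted p from limma was 0.0688. *Crabp1* ranged from -0.11 to 0.63, both extremes coming from the removal of a WT mouse. The difference of *Aldh1a1* was 0.0050 without the first WT mouse and 0.31 without the second, and that of *Cyp26a1* was 0.026 and 0.63. The dimmer *Rarg* probe set had 3 such fits, since without the first knockout mouse it was under the minimum signal. No member passed the test in any of these fits.

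**Figure D4:**
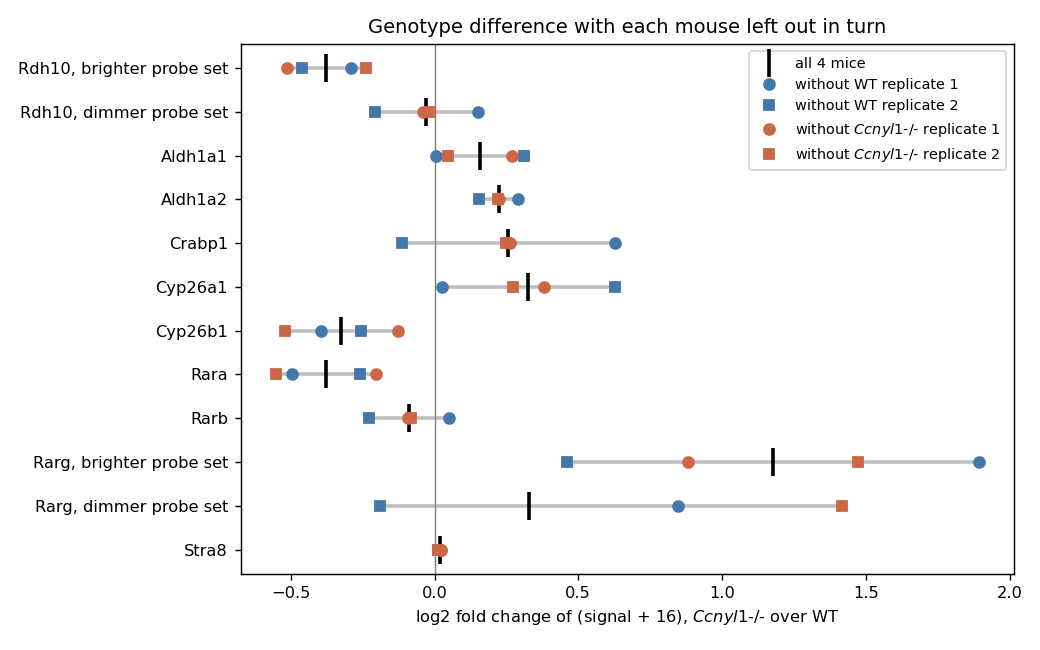
Log2 fold change of (signal + 16), *Ccnyl1*-/- over WT, of the 12 probe sets with all 4 mice (black bar) and without each mouse in turn where the minimum signal was still met (3 fits for the dimmer *Rarg* probe set, 4 for the others; circles, replicate 1; squares, replicate 2; blue, WT; orange, *Ccnyl1*-/-; grey line, range). *Crabp1*, *Rarb* and the dimmer probe sets of *Rdh10* and *Rarg* cross 0, and *Stra8* stays between 0.01 and 0.02.

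Replicate numbers were not a pairing in the labels, yet the first mouse stood on the same side of the second in both genotypes for 9 of the 12 probe sets, against 51.3% of all tested probe sets. Both probe sets of *Rarg* and of *Rdh10*, and that of *Rarb*, had the first mouse higher, and those of *Aldh1a1*, *Cyp26a1*, *Cyp26b1* and *Rara* had it lower. Of 9 Leydig cell markers 6 were tested, the others (*Insl3*, *Lhcgr* and *Hsd3b6*) having no paired probe set. The summed Leydig signal was higher in the first mouse, at 7559 against 4283 in WT and 9680 against 5589 in *Ccnyl1*-/- mice. Summed markers of spermatogonia, Sertoli cells, peritubular cells, macrophages and epididymis were also higher in the first mouse of each genotype. Those of spermatocytes and endothelium were lower in it, and those of spermatids and blood differed in direction between the genotypes.

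Other genes of RA metabolism and response were taken as 8 lists of 90 genes in all, of which 67 had a tested probe set, 10 were not paired and 13 were too dim. None of the 67 passed the test by limma, while 5 higher and 3 lower ones had an unadjusted p under 0.05, beside the 6.05% of all probe sets given above. By the brightest probe set, 31 were higher and 36 lower in *Ccnyl1*-/- testes, with a median log2 fold change of -0.02, and the genotypes lay apart for 27 of them, 40.3%, beside 35.9% of all probe sets. Values of the 2 genes farthest from 0 are given for each list.

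Upstream of RDH10, 8 of 11 genes of retinol uptake, transport and storage were tested, of which 2 were higher and 6 lower (median -0.05). *Lpl*, the lipase that releases lipids and retinyl esters from chylomicrons, had 125 and 141 in the WT and 82.9 and 105 in the *Ccnyl1*-/- mice, a log2 fold change of -0.45 (limma, adjusted p = 0.832). *Rbp2*, a cellular retinol-binding protein, had -0.20 (limma, adjusted p = 0.962), with the second WT mouse at 125 and the others at 39.8 to 62.8. Only *Lpl* had genotypes that did not overlap among these examples.

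Beside RDH10 act other oxidoreductases of retinol and retinaldehyde, and their list here also held *Bco1* and *Bco2*, whose enzymes cleave carotenoids. Of the genes on this list 14 of 22 were tested, 8 higher and 6 lower (median 0.07). *Bco2*, a carotenoid-cleaving oxygenase, had 0.54 (limma, adjusted p = 0.931), with WT mice at 122 and 8.21. *Dhrs4*, a reductase of retinaldehyde, had -0.42 (limma, adjusted p = 0.849), whereas its other probe set had -0.0083. By the brightest probe set, the genotypes of *Bco2* and of *Dhrs4* overlapped.

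The 3 other dehydrogenases related to ALDH1A1 and ALDH1A2 were all higher, with a median of 0.29, and did not pass. *Aldh1a7*, a close relative of *Aldh1a1*, had 632 and 373 in the WT and 820 and 471 in the *Ccnyl1*-/- mice, a log2 fold change of 0.35 (limma, adjusted p = 0.889). Its genotypes overlapped. *Aldh8a1*, whose enzyme prefers 9-cis retinal, had 120 and 109 in the WT and 147 and 140 in the *Ccnyl1*-/- mice, 0.29 (limma, adjusted p = 0.869), with the knockout mice above the WT mice.

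Next to CYP26 and CRABP1, 2 of 4 genes of clearance and binding were tested. *Cyp2s1*, another P450 that oxidises RA, had a log2 fold change of -0.32 (limma, adjusted p = 0.904). *Fabp5*, which carries RA to another nuclear receptor, had -0.18 (limma, adjusted p = 0.909). Both had overlapping genotypes.

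Among the partners of the RARs and the orphan receptors that bind the same repeats, 6 of 8 were tested, 4 higher and 2 lower (median 0.02). *Rxrb*, the retinoid X receptor whose loss is known to impair spermatogenesis, had 254 and 276 in the WT and 451 and 343 in the *Ccnyl1*-/- mice. Both knockout mice were above the WT mice, and its log2 fold change of 0.55 (95% interval 0.16 to 0.93) had an adjusted p of 0.741 by limma. *Nr2c1*, the testicular orphan receptor TR2, had 1308 and 1108 in the WT and 931 and 962 in the *Ccnyl1*-/- mice, -0.34 (limma, adjusted p = 0.758), while its other probe sets ran from -0.28 to 0.34.

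Of the coactivators and corepressors that the receptors recruit, 9 of 11 were tested, 1 higher and 8 lower (median -0.07). The one higher was *Ep300*, a histone acetyltransferase, at 0.31 (limma, adjusted p = 0.820), with both knockout mice above both WT mice. *Nrip1*, a ligand-dependent corepressor, had -0.28 (limma, adjusted p = 0.878), and its other probe sets ran from 0.01 to 0.54, so that the sign depended on the probe set.

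Downstream, 10 of 14 RA-responsive genes known from other tissues were tested, 5 higher and 5 lower (median 0.01). *Rarres1*, a gene named for its response to retinoids, had 626 and 502 in the WT and 457 and 339 in the *Ccnyl1*-/- mice. The knockout mice were below the WT mice, with a log2 fold change of -0.49 (95% interval -0.90 to -0.09, limma, adjusted p = 0.781). *Ret*, the receptor of GDNF on spermatogonial stem cells, had -0.47 (limma, adjusted p = 0.934), with knockout mice at 62.4 and 4.78.

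At the step where *Stra8* acts, 15 of 17 germ cell genes were tested, 8 higher and 7 lower (median 0.04). *Dmc1*, the meiotic recombinase, had 494 and 695 in the WT and 458 and 301 in the *Ccnyl1*-/- mice. All knockout values were below those of WT, with a log2 fold change of -0.64 (95% interval -1.14 to -0.13, limma, adjusted p = 0.780), whereas its other probe set had 0.06. *Spo11*, which makes the breaks that DMC1 helps to repair, had 0.23 (limma, adjusted p = 0.832) with overlapping genotypes.

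**Figure D5:**
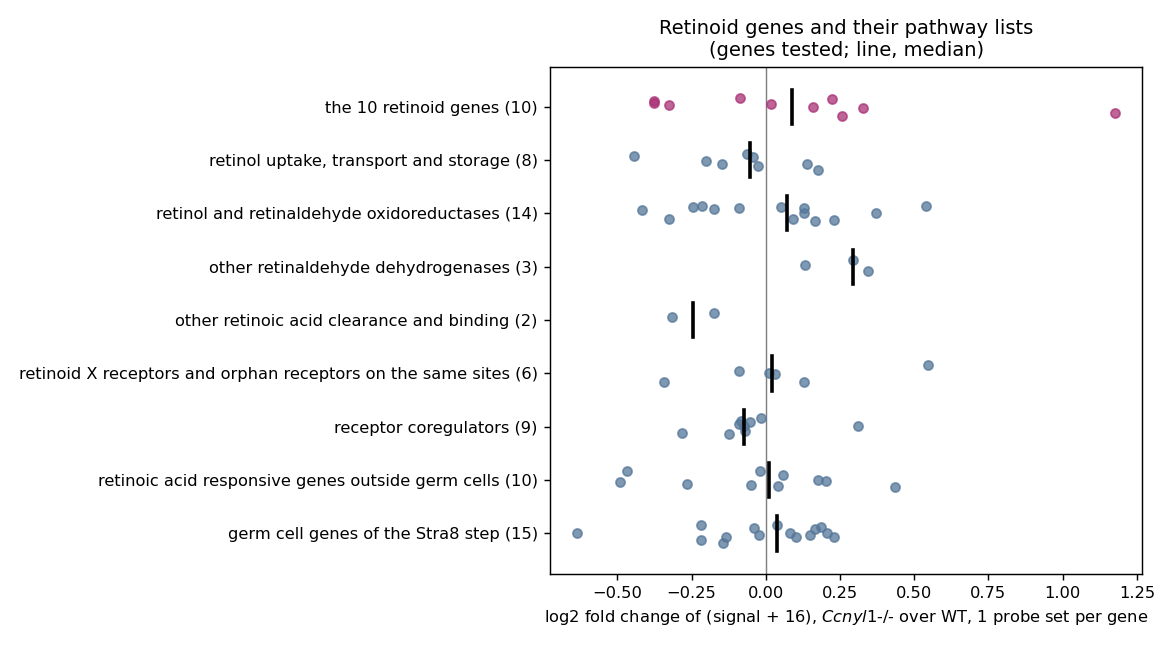
Log2 fold change of (signal + 16), *Ccnyl1*-/- over WT, of the 10 RA genes (purple) and of the tested genes of 8 pathway lists (blue), each by its brightest probe set, with the number tested in parentheses and a black line at the median. List medians lie between -0.25 and 0.29, and *Rarg* at 1.18 stands farthest from 0.

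Cell type markers were read beside these values, since the enzymes and receptors of the pathway are known from different cells. Summed over markers, spermatocytes had 63902 and 65968 in the WT and 66806 and 67064 in the *Ccnyl1*-/- mice, a 1.03-fold difference without overlap. Sertoli cell markers summed to 37640 and 36582 in the WT and 36232 and 34353 in the *Ccnyl1*-/- mice, 0.951-fold without overlap, although 9 of the 13 tested markers were higher. Most of the Sertoli sum came from *Clu* (16361 in the first WT mouse) and *Ctsl* (12995 in that mouse), which had log2 fold changes of -0.09 and -0.15. The other probe sets of *Clu* ran from -0.07 to 0.22 and the other of *Ctsl* had 0.28, so the sign depended on the probe set. Round spermatid markers summed to 84211 and 82097 in the WT and to 80562 and 80633 in the *Ccnyl1*-/- mice, 0.969-fold without overlap. Elongating spermatid markers summed to 272187 and 278575 in the WT and to 278505 and 269396 in the *Ccnyl1*-/- mice, 0.995-fold with overlap. For comparison, the genotypes lay apart for 35.9% of all tested probe sets. The Leydig sums given above differed by 1.29-fold between the genotype means, with overlap. The part of these sums in the values of the RA genes was not tested.

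Spermatogonial markers summed to 7222 and 6904 in the WT and 7359 and 7014 in the *Ccnyl1*-/- mice, and those of peritubular cells to 9002 and 8620 and to 9249 and 8932, both with overlap between genotypes. The sum over macrophage markers came to 5414 and 4374 for the WT mice and to 4395 and 3911 for the *Ccnyl1*-/- mice, with overlap. Endothelial markers summed to 674 and 799 in the WT and to 715 and 740 in the *Ccnyl1*-/- mice, also with overlap. Of the 12 epididymal markers 5 were bright enough for the test, 5 were too dim and 2 had no paired probe set. Sums over the paired ones ran from 392 to 558. Of the 8 blood markers 2 were tested, 2 were too dim and 4 had no paired probe set. No marker of any cell type passed the test.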

How the data were processed

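Testis RNA of 4 biological replicates was hybridised to 1 Affymetrix array each. The authors deposited MAS 5.0 signals, intensities on a linear scale, for 45101 probe sets, and the submitters' processing notes name MAS5. The methods state global scaling to a trimmed mean target of 100, whereas the deposited values average 500.0 (2% trimmed at each end), so the offset and minimum act at a lower brightness than that target implies. Columns of no sample numbered 0. Of 45037 probe sets that are not controls, the platform annotation gives 1 gene for 34945, several for 932 and none for 9160.

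Log2(signal + 16) was compared by genotype in R 4.3.3 with limma 3.58.1 (lmFit, eBayes with a variance trend), over 32438 probe sets with a mean signal of at least 32, at a Benjamini-Hochberg adjusted p of 0.05. The test was checked on simulated data. The members and lists were chosen with earlier results of these data known. Every probe set of the members is named, with *Ccnyl1* and the 2 farthest genes of each pathway list by brightest probe set. Mice of 1 genotype are labelled as biological replicates. The labels do not pair the mice by replicate number. Log2 differences between replicates 1 and 2 correlated at 0.01 between the genotypes over the 32438 probe sets. Alternatives tried numbered 16, and 1, rescaling to a trimmed mean of 100, was chosen after seeing the data.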

Additional observations from a re-analysis of the deposited data

How the results depend on the processing

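No probe set of the 10 genes passed the test under any alternative in which it was tested, 12 to 17 of them for each, since a higher minimum, the suffix filter or the loss of a mouse dropped some. The lowest adjusted p from limma was 0.0688, for *Rarg* without the first WT mouse. The eBayes options, the t-test, the replicate block and the filters left each fold change as it was, so they could not turn its sign. Counting these, 180 of 186 fold changes kept their direction. The exceptions were *Stra8* under quantile normalization (-0.015) and with arrays scaled to one median (-0.058), and leaving out 1 mouse, where *Rarb* ranged from -0.23 to 0.051, the dimmer *Rarg* probe set from -0.19 to 1.42, *Crabp1* from -0.11 to 0.63 and the dimmer *Rdh10* probe set from -0.21 to 0.15. The median log2 fold change of the 10 genes, 0.09, became 0.16 with a minimum signal of 100, 0.011 with arrays scaled to one median and 0.018 without the suffixed probe sets, and ranged from -0.051 to 0.12 without 1 mouse. Over all probe sets the test called 4, with 7 for arrays scaled to one median, 0 for eBayes without the trend, 0 for the methods' t-test, and 11 to 57 without 1 mouse. With the replicate number as a block it called 14 and no member. Scaling to one median moved the median of all probe sets by -0.07. The causes of these moves were not tested. Dim signals and 2 mice per genotype limit what can be seen.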
